A study of Mus musculus with 16 samples.

Results

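The Fc gamma receptor group was 6 of the 22287 genes in the count table, namely Fcgr1, Fcgr2b, Fcgr3 and Fcgr4, the signalling chain Fcer1g and the neonatal Fc receptor heavy chain Fcgrt. The genes were chosen by symbol and not by any measured value, and all 6 were among the 12514 genes that passed the filter on low counts. RNA-seq was done on bone marrow derived macrophages of C57BL/6J mice aged 8 weeks, and no allele or transgene is named for any group. Culture for 7 days with GM-CSF at 20 ng/ml gave the cells called GM, and culture with M-CSF at 50 ng/ml the cells called M. The study seeded GM cultures more densely than M cultures, so seeding density and growth factor cannot be told apart in any comparison of GM with M. The dishes were tissue culture treated (TC) or untreated (noTC), and the cells received vehicle (steady state) or LPS at 100 ng/ml for 3 h. The 8 groups of 2 libraries were GM-TC, GM-noTC, GM-TC-LPS, GM-noTC-LPS, M-TC, M-noTC, M-TC-LPS and M-noTC-LPS. The study asked whether the dish surface changes such cells. It calls the libraries of a group biological replicates but the labels do not name the animals or cultures behind them, so the p-values measure the spread between these libraries. No sort of the cells is named in the sources used here, so each library is a whole culture.

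Fc gamma receptors bind the constant part of IgG and let macrophages take up opsonized particles and respond to immune complexes. In the mouse, FcγRI (Fcgr1), FcγRIII (Fcgr3) and FcγRIV (Fcgr4) are activating receptors that signal through the ITAM of the common gamma chain, the product of Fcer1g. FcγRIIB (Fcgr2b) carries an inhibitory motif that recruits the lipid phosphatase SHIP-1 (Inpp5d), so the balance of activating and inhibitory receptors sets the response to immune complexes. The neonatal Fc receptor, made of the products of Fcgrt and B2m, is not a phagocytic receptor of this kind and protects IgG and albumin from degradation inside the cell.

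Sequences show first why Fcgr2b and Fcgr3 were read with care. The longest coding sequences of both genes in GENCODE M21 (GRCm38) were 1020 and 801 bases long and were identical at 87.5% of 782 aligned bases, whereas the other pairs among Fcgr1, Fcgr2b, Fcgr3 and Fcgr4 were identical at 67.8% to 69.8% of aligned bases. The longest run without a difference covered 129 bases, in the part that encodes the extracellular domains. It was at coding bases 278 to 406 of Fcgr2b, in 2 exons between chr1:170966674-170968081 on the minus strand, and at coding bases 263 to 391 of Fcgr3, in 2 exons between chr1:171054167-171057792 on the minus strand.
Shared coding run of Fcgr2b and Fcgr3: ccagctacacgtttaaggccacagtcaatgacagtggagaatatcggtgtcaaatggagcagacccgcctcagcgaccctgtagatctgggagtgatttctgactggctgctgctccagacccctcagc
A read that lies in this run cannot be given to either gene from its letters. Of all windows of 50 bases in the Fcgr2b coding sequence, 17.1% were also found in an annotated Fcgr3 transcript, and 0 were found in a transcript of Fcgr1 or Fcgr4. For windows of 100 bases the share found in an Fcgr3 transcript was 4.78%. The deposited values of Fcgr2b and of Fcgr3 were not whole numbers in 14 of 16 libraries, while their sum was whole in 16 of 16 libraries (within 0.011 counts). Values of the other 4 genes were whole in every library. Fcgr2b and Fcgr3 thus divided shared reads by estimate, and both are given separately and as a sum. In the RefSeq gene table, Fcgr2b, Fcgr4 and Fcgr3 are consecutive protein coding genes on chromosome 1, with Fcer1g farther along the same chromosome, whereas Fcgr1 is on chromosome 3 and Fcgrt on chromosome 7.

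Promoters are shown for Fcgr1 and Fcgr4, the activating receptor genes that rose most upon LPS challenge of M cells. Sequences are the 250 bases before the transcription start in the RefSeq promoter table (GRCm38.p6), at chr3:96293970-96294219 on the minus strand for Fcgr1 and chr1:171018676-171018925 on the plus strand for Fcgr4, and capitals mark motif matches.
Fcgr1 promoter: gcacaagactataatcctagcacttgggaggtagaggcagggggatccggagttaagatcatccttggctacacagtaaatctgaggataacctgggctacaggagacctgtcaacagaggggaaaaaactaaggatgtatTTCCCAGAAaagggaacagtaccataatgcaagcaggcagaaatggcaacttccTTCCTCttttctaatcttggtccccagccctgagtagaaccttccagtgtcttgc
Fcgr4 promoter: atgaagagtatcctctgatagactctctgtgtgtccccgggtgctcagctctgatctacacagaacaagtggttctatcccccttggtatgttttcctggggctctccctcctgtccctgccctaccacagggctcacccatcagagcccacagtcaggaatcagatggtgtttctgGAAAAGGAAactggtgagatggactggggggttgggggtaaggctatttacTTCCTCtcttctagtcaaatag
Both strands of windows that also hold the 50 bases after the start were searched for TTCNNNGAA (the interferon gamma activated sequence, GAS), GAAANNGAA (an interferon response element), GAGGAA (the core bound by PU.1, the macrophage lineage factor) and GGGANTTTC (an NF-kB motif). Fcgr1 held the GAS letters and Fcgr4 the interferon element letters, which 8.30% and 8.56% of the 32851 promoters of the table held. PU.1 core letters were in the windows of Fcgr1, Fcgr3 and Fcgr4, and in 28.3% of all promoters. The windows of Fcgr2b, Fcer1g and Fcgrt held none of the 4 motifs, and no window of the 6 genes held the NF-kB letters, which were in 1.11% of all promoters. These matches are descriptions of letters and not of bound sites.

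Total counts per library were 17527806 to 31458368, at which 3 counts equal 0.0954 to 0.171 CPM, that is, counts relative to the library total. The fewest counts of any of the 6 genes in any library were 251, for Fcgrt, so none was near that floor, which covers counting error only. Levels below are CPM scaled with the TMM factors of edgeR, which were 0.778 to 0.842 in the LPS libraries and 1.11 to 1.39 in the others. Because the factors differ between these states, scaling by library size alone moved the median over all genes of the log2 fold change upon LPS to -0.83 in M-TC and -0.73 in M-noTC, to -0.53 and -0.54 in the matched GM groups, and to -0.29 for GM against M at steady state on either dish. Changes below are therefore relative to the bulk of genes, and each direction that turned under library size alone is named beside its value. Genes were called with edgeR's quasi-likelihood test at a Benjamini-Hochberg adjusted p under 0.05 over all tested genes. In bulk RNA, fewer cells of a type and less RNA per cell cannot be told apart. All 6 macrophage markers (Adgre1, Csf1r, Cd68, Itgam, Cd14 and Mertk) were found in every group, with summed levels of 3894 to 8825 CPM.

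**Figure D1:**
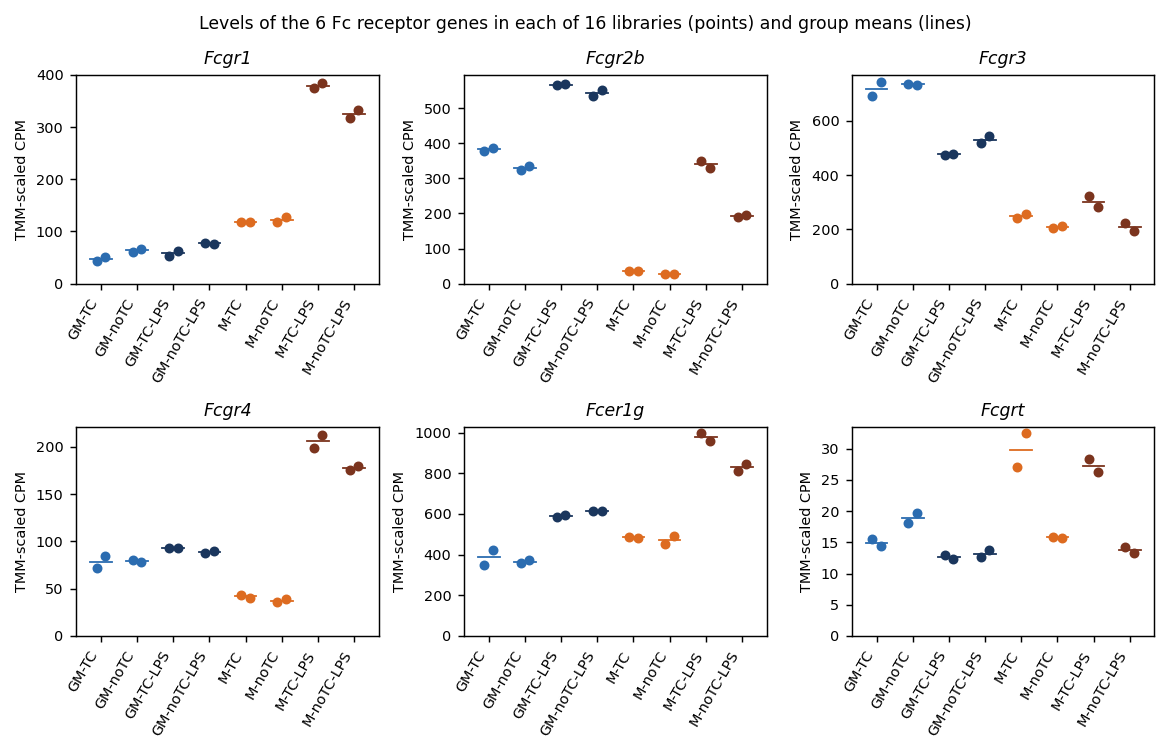
TMM-scaled CPM (y axis, from 0) of each of the 6 genes in the 8 groups (x axis), with a point for each of 16 libraries and a line for each group mean of 2 libraries. Fcgr2b was at 26.8 to 35.9 CPM in the M steady state libraries and at 191 CPM or more in the other 12, and Fcgr1 and Fcgr4 were highest in the M libraries upon LPS challenge.

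Levels per length differed widely among the 6 genes. After division by the merged exon length in kb, Fcer1g had the highest group mean in 7 of 8 groups, with 443 to 1118 CPM per kb, and Fcgr3 was highest in GM-noTC at 423 CPM per kb against 419 for Fcer1g. Fcgrt had the lowest mean in 6 of 8 groups, with 6.00 to 13.0 CPM per kb, and Fcgr2b was the lowest in M-TC and M-noTC at 6.20 and 4.72 CPM per kb. The merged exons of Fcgr2b measured 5790 bases because of long transcript forms. With the median length of protein coding transcripts, 1520 bases, Fcgr2b rose in M-TC-LPS from rank 5 to rank 3 of the 6 genes. In M-noTC Fcgr2b was then at 18.0 CPM per kb and no longer the lowest, with Fcgrt at 13.3. That second length was chosen after seeing the data, and it left Fcer1g the highest in the same number of groups, 7 of 8.

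Fcgr1 encodes the high affinity receptor that binds monomeric IgG2a. The GM-TC libraries had 43.0 and 51.5 CPM, the GM-noTC libraries 60.2 and 67.0, the GM-TC-LPS libraries 52.9 and 63.1 and the GM-noTC-LPS libraries 77.1 and 76.8. The M-TC libraries had 118 and 118 CPM, the M-noTC libraries 118 and 127, the M-TC-LPS libraries 375 and 383 and the M-noTC-LPS libraries 317 and 332. Every M library was above every GM library, and the M libraries with LPS stood apart from the rest. In the order of group means, M-noTC overlapped with M-TC and GM-noTC with GM-TC-LPS, while the other neighbours were apart.

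Fcgr4 encodes an activating receptor of intermediate affinity for IgG2a and IgG2b. At steady state it was at 72.1 and 84.7 CPM (GM-TC), 80.5 and 78.3 (GM-noTC), 43.7 and 40.5 (M-TC) and 35.9 and 38.7 (M-noTC). Upon LPS challenge it was at 93.0 and 92.8 CPM (GM-TC-LPS), 87.3 and 89.5 (GM-noTC-LPS), 199 and 212 (M-TC-LPS) and 176 and 180 (M-noTC-LPS). GM cells thus held the higher level at steady state and M cells the higher level upon LPS challenge, with no overlap between the growth factors in either state. Of the neighbours in the order of means, GM-noTC and GM-TC were the only ones to overlap.

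Fcgr3 encodes the low affinity activating receptor for immune complexes of IgG1, IgG2a and IgG2b. Steady state levels were 692 and 744 CPM for GM-TC, 735 and 734 for GM-noTC, 242 and 256 for M-TC and 206 and 211 for M-noTC. Levels with LPS were 476 and 478 CPM for GM-TC-LPS, 517 and 546 for GM-noTC-LPS, 323 and 282 for M-TC-LPS and 224 and 196 for M-noTC-LPS. Every GM library was above every M library, and the steady state GM libraries were highest. M-noTC-LPS overlapped with M-noTC, and GM-noTC with GM-TC.

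Fcgr2b, the inhibitory receptor gene, had the widest range of the 6 genes as a ratio of the highest to the lowest library. On TC dishes the M cells had 35.9 and 35.9 CPM before and 350 and 328 CPM after LPS, and on noTC dishes 26.8 and 27.8 CPM before and 191 and 196 CPM after. On TC dishes the GM cells had 379 and 386 CPM before and 565 and 568 CPM after LPS, and on noTC dishes 323 and 335 CPM before and 535 and 552 CPM after. The M cells were thus lowest at steady state, and with LPS each M group was still below the GM group with LPS on the same dish. M-TC-LPS overlapped with the steady state group GM-noTC, and all other neighbours in the order were apart.

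Fcer1g at steady state was at 351 and 423 CPM (GM-TC), 359 and 373 (GM-noTC), 485 and 484 (M-TC) and 452 and 491 (M-noTC). With LPS it was at 586 and 596 CPM (GM-TC-LPS), 615 and 614 (GM-noTC-LPS), 997 and 957 (M-TC-LPS) and 810 and 848 (M-noTC-LPS). The gamma chain was thus higher in each LPS group than in any steady state group, on the TMM scale. Fcer1a, which pairs with Fcer1g in the high affinity IgE receptor of mast cells and basophils, was at 0.0517 CPM or less in every library, below 3 counts.

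On the TMM scale, M cells on TC dishes had the most Fcgrt. The M cells had on TC dishes 27.1 and 32.5 CPM at steady state and 28.3 and 26.3 with LPS, and on noTC dishes 15.9 and 15.7 CPM and then 14.3 and 13.2. GM cells on TC dishes had 15.5 and 14.5 CPM at steady state and 13.0 and 12.3 with LPS, and on noTC dishes 18.1 and 19.7 CPM and then 12.6 and 13.8. The 4 M libraries from TC dishes were above the 12 others on this scale. With library size alone M-TC-LPS, at 22.4 and 20.4 CPM, overlapped with GM-noTC, at 20.4 and 22.1, and with M-noTC, at 22.1 and 21.5. M-TC and M-TC-LPS overlapped, as did M-noTC-LPS with GM-noTC-LPS and GM-noTC-LPS with GM-TC-LPS.

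Upon LPS challenge of M cells, Fcgr2b rose the most of the 6 genes by log2 fold change, followed by Fcgr4 and Fcgr1. Fcgr2b rose 9.45-fold in M-TC (log2 fold change 3.24, standard error 0.056, adjusted p = 1.5e-22) and 7.09-fold in M-noTC (2.83, standard error 0.055, adjusted p = 1.6e-21). Fcgr4 rose 4.89-fold in M-TC (log2 fold change 2.29, standard error 0.070) and 4.76-fold in M-noTC (2.25, standard error 0.069), and Fcgr1 rose 3.21-fold (1.68, standard error 0.075) and 2.65-fold (1.41, standard error 0.074). The largest adjusted p of these 4 values was 1.1e-13. With library size alone, the log2 fold changes in M-TC and M-noTC were 2.41 and 2.10 for Fcgr2b, 1.46 and 1.53 for Fcgr4 and 0.85 and 0.68 for Fcgr1, so the 3 genes were higher under both scalings. Fcer1g rose by log2 1.01 in M-TC (standard error 0.064, adjusted p = 2.9e-12) and 0.81 in M-noTC (standard error 0.064, adjusted p = 1.3e-10), and these became 0.18 and 0.09 with library size alone, the latter no longer called (adjusted p = 0.17).

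Fcgr3 did not follow the other receptors. In M-TC its log2 fold change upon LPS was 0.28 (standard error 0.066, adjusted p = 0.00055), which turned to -0.54 with library size alone. In M-noTC it was 0.01 (interval -0.12 to 0.14, adjusted p = 0.88), and -0.71 with library size alone. Fcgrt had log2 fold changes of -0.13 in M-TC (interval -0.30 to 0.05, adjusted p = 0.21) and -0.20 in M-noTC (interval -0.40 to -0.004, unadjusted p = 0.059, adjusted p = 0.078), which were not called. With library size alone its values were -0.95 and -0.92, which were called. In all, 5 of the 6 genes were called higher in M-TC and 0 lower, where 37.6% of all 12514 tested genes were called higher and 36.4% lower. In M-noTC 4 were called higher and 0 lower, against 36.4% and 35.9% of all genes.

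In GM cells the changes were smaller. Fcgr2b rose 1.48-fold in GM-TC (log2 fold change 0.57, standard error 0.048, adjusted p = 6.5e-10) and 1.65-fold in GM-noTC (0.73, standard error 0.048, adjusted p = 9.0e-12), with 0.09 and 0.22 for library size alone, the first not called (adjusted p = 0.099). Fcer1g rose by log2 0.61 and 0.75 (standard error 0.064 each, adjusted p = 2.6e-08 and 8.8e-10), with 0.13 (not called, adjusted p = 0.055) and 0.24 for library size alone. Fcgr3 fell by 0.59 and 0.47 on the log2 scale (standard error 0.064 each, adjusted p = 4.1e-08 and 1.3e-06), with both groups apart and with the same direction under library size alone. The small increases of Fcgr1 (0.29 and 0.27) and Fcgr4 (0.24 and 0.16) were called, but turned to called decreases of -0.19 and -0.24 and of -0.24 and -0.35 with library size alone. The increase of Fcgr4 in GM-noTC was also not called with DESeq2 (adjusted p = 0.055) or without any 1 of 8 libraries, and that of Fcgr1 in GM-TC was 0.16 without GM-TC-LPS replicate 2 and 0.19 without GM-TC replicate 1 (adjusted p = 0.17 and 0.054). That of Fcgr1 in GM-noTC was 0.22 without GM-noTC replicate 1 (adjusted p = 0.059). Fcgrt fell by 0.25 in GM-TC (adjusted p = 0.047) and by 0.52 in GM-noTC (adjusted p = 0.00011). The GM-TC value was no longer called with DESeq2 (adjusted p = 0.13) or its size factors, without the filter, with a replicate block (adjusted p = 0.053), with the subtraction given beside the dish values below, in a fit to its own libraries or without any 1 of 8 libraries, with values of -0.29 to -0.18 in these. Marker sums moved with LPS too. The dendritic cell markers were Flt3, Zbtb46, Ccr7, Xcr1, Clec9a and Dpp4, of which Ccr7 and Clec9a had the most counts (5886 and 3889 over all libraries). Neutrophil markers were Ly6g, S100a8, S100a9, Mpo, Elane, Camp, Ltf and Ngp. In GM-TC the dendritic cell markers went from 47.5 to 48.4 CPM before LPS to 84.6 to 91.0 CPM after it and the neutrophil markers from 12.7 to 16.7 CPM to 28.3 to 36.2 CPM, and in M-TC the macrophage markers went from 5861 to 5946 CPM to 8623 to 8825 CPM. Their part in the values of LPS was not tested. Counts were 4 higher and 2 lower in GM-TC, where 32.8% of all genes were called higher and 34.2% lower, and 4 higher and 2 lower in GM-noTC, against 33.6% and 34.0%.

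**Figure D2:**
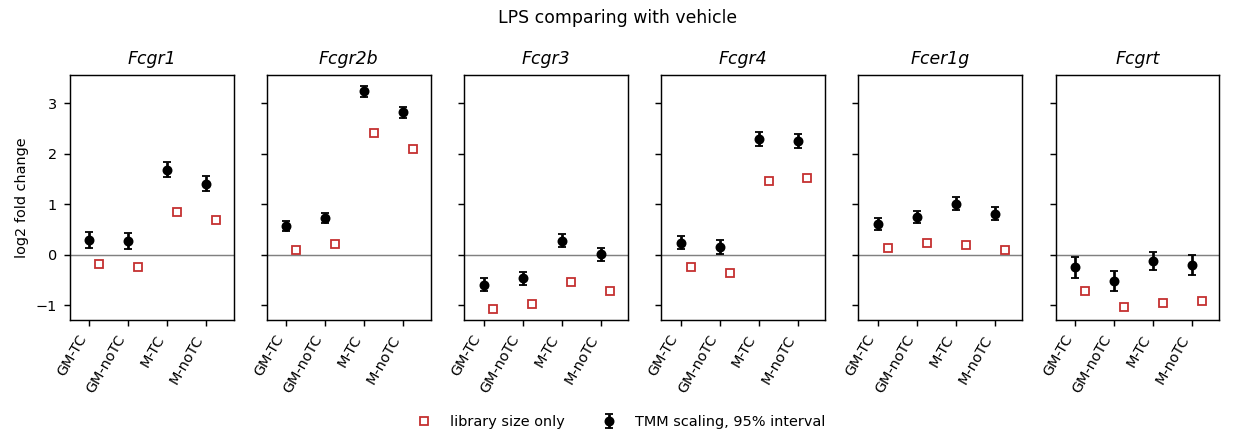
Log2 fold change upon LPS (y axis) of each gene in GM and M cells on each dish (x axis), with filled circles and bars for TMM scaling and its 95% interval and open squares for library size alone. Fcgr2b, Fcgr4 and Fcgr1 in M cells were above 0 under both scalings, while Fcgr1 and Fcgr4 in GM cells and Fcgr3 in M-TC changed side.

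The response to LPS was tested for a difference between the growth factors. On TC dishes, the log2 response in GM minus that in M was -2.67 for Fcgr2b (standard error 0.072, adjusted p = 2.3e-17), -2.05 for Fcgr4 (standard error 0.097, adjusted p = 2.4e-13), -1.39 for Fcgr1 (standard error 0.11, adjusted p = 1.4e-09) and -0.87 for Fcgr3 (standard error 0.092, adjusted p = 7.8e-08). On noTC dishes the values were -2.10, -2.10, -1.13 and -0.48, with adjusted p-values of 2.0e-15, 2.2e-13, 2.4e-08 and 0.00025. All 8 differences were called with library size alone as well, at -2.33, -1.70, -1.04 and -0.53 on TC and -1.88, -1.88, -0.92 and -0.26 on noTC. The difference of -0.40 for Fcer1g on TC (adjusted p = 0.0010) became -0.06 with library size alone (adjusted p = 0.61). On noTC the Fcer1g difference was -0.07 (interval -0.24 to 0.11), which turned to 0.15 with library size alone (adjusted p = 0.17). For Fcgrt the differences were -0.12 on TC and -0.32 on noTC, and neither was called (adjusted p = 0.53 and 0.090). The former turned to 0.23 with library size alone (adjusted p = 0.20). On TC, 5 of the 6 genes were called lower and 0 higher, beside 23.3% lower and 17.8% higher among all genes. On noTC 4 were called lower and 0 higher, beside 19.3% and 16.9%.

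Comparing GM with M cells at steady state, the inhibitory receptor differed most. Fcgr2b was 10.7-fold higher in GM on TC (log2 3.41, standard error 0.056, adjusted p = 2.6e-22) and 12.02-fold higher on noTC (3.59, standard error 0.056, adjusted p = 1.3e-22). Fcgr3 was 2.89-fold and 3.53-fold higher in GM (log2 1.53 and 1.82, standard error 0.066 each, adjusted p = 5.6e-15 and 2.5e-16) and Fcgr4 1.87-fold and 2.13-fold higher (0.90 and 1.09, adjusted p = 2.3e-10 and 5.5e-12). In the opposite direction, Fcgr1 was 2.49-fold lower in GM on TC and 1.93-fold lower on noTC (log2 -1.32 and -0.94, adjusted p = 3.1e-12 and 4.2e-10). Fcer1g was lower in GM, with log2 differences of -0.32 and -0.37 (adjusted p = 0.00016 and 3.6e-05). Fcgrt was 1.996-fold lower in GM on TC (log2 -0.997, standard error 0.094, adjusted p = 4.7e-09) but higher on noTC by log2 0.26 (adjusted p = 0.019), which turned to -0.03 with library size alone (adjusted p = 0.78) and was not called with DESeq2 (adjusted p = 0.089) or without M-noTC replicate 1 or 2 or GM-noTC replicate 2 (0.26, 0.24 and 0.19).

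Upon LPS challenge the order of GM and M stayed the same for Fcgr1, Fcgr2b, Fcgr3 and Fcer1g, and turned for Fcgr4. Fcgr2b remained higher in GM by log2 0.74 on TC and 1.49 on noTC (adjusted p = 8.4e-12 and 6.1e-17), and Fcgr3 by 0.66 and 1.34 (adjusted p = 1.0e-08 and 6.9e-14). Fcgr1 was 6.52-fold lower in GM on TC and 4.22-fold lower on noTC (log2 -2.71 and -2.08, adjusted p = 8.3e-18 and 4.9e-16). Fcgr4 turned, and was 2.21-fold and 2.01-fold lower in GM (log2 -1.15 and -1.01, adjusted p = 1.0e-12 and 9.8e-12). The differences for Fcer1g were -0.73 and -0.43 (adjusted p = 1.4e-09 and 3.6e-06), and those for Fcgrt were -1.12 on TC (adjusted p = 2.1e-09) and -0.06 on noTC (interval -0.27 to 0.16, adjusted p = 0.66). These 4 comparisons and those of LPS share libraries, so that they are not separate evidence.

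At steady state, 3 genes were called higher and 3 lower in GM on TC, against 32.6% and 28.9% of all genes, and 4 higher and 2 lower on noTC, against 31.4% and 30.7%. Upon LPS challenge, 2 were higher and 4 lower on TC, against 33.9% and 32.9% of all genes, and 2 higher and 3 lower on noTC, against 33.5% and 32.6%. Apart from Fcgrt on noTC at steady state, the other 22 calls of GM against M held under every alternative with an adjusted p. Markers of other cells moved with the growth factor. The 6 dendritic cell markers summed to 47.5 to 104 CPM in GM and 0.917 to 4.44 CPM in M libraries, with counts for 6 of 6 in every group. The 8 neutrophil markers summed to 12.7 to 44.7 CPM in GM, with 8 of 8 detected, and to 0.337 to 2.05 CPM in M, with 4 or 5 of 8 detected and Ly6g, Mpo and Elane at 0. The 6 mast cell and basophil markers summed to 20.9 to 35.2 CPM in GM and 3.31 to 8.25 CPM in M, where 2 to 4 of 6 were detected and Mcpt8 and Fcer1a were at 0. The part of these cells in the levels of the 6 genes was not tested.

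The balance of activating and inhibitory transcripts was read within each library, where scaling cancels out. The ratio of the summed counts of Fcgr1, Fcgr3 and Fcgr4 to those of Fcgr2b was 11.3 and 11.5 in M-TC and 13.4 and 13.5 in M-noTC. GM cells at steady state had 2.13 and 2.28 on TC and 2.71 and 2.63 on noTC. With LPS, M cells had 2.56 and 2.68 on TC and 3.76 and 3.60 on noTC, and GM cells 1.10 and 1.12 on TC and 1.27 and 1.29 on noTC. Each of the 4 LPS groups was thus below its vehicle group without overlap, GM was below M in each matched pair, and noTC was above TC in each matched pair. The ratio contains Fcgr2b and Fcgr3, so it rests on how their shared reads were divided. Because genes differ in length, it compares libraries and not molecules of the receptors. Per kb of merged exons it was 35.5 and 36.3 in M-TC and 3.78 and 3.81 in GM-TC-LPS. Those values rest on the long merged exons of Fcgr2b. With the median transcript length, Fcgr2b in M-TC was at 23.6 CPM per kb in place of 6.20, and Fcgr3 at 188 in place of 143. The ratio per kb thus depends on the length used.

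Each activating receptor was also set against Fcgr2b on its own. On TC dishes, Fcgr3 over Fcgr2b in M cells was 6.74 and 7.12 before LPS and 0.922 and 0.859 after it, and in GM cells 1.83 and 1.93 before and 0.842 and 0.841 after. Fcgr1 over Fcgr2b was 3.29 in both M-TC libraries and 1.07 and 1.17 in M-TC-LPS, whereas in GM-TC it was 0.114 and 0.134. Of the counts of the 4 receptors, Fcgr2b made up 8.16% and 7.97% in M-TC, 28.1% and 27.2% with LPS added, 31.9% and 30.5% in GM-TC, and 47.6% and 47.3% with LPS added. Fcer1g counts over those of the 3 activating receptors were 1.09 to 1.30 in every M library. In GM cells this ratio was 0.410 to 0.481 before LPS and 0.862 to 0.942 after it.

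**Figure D3:**
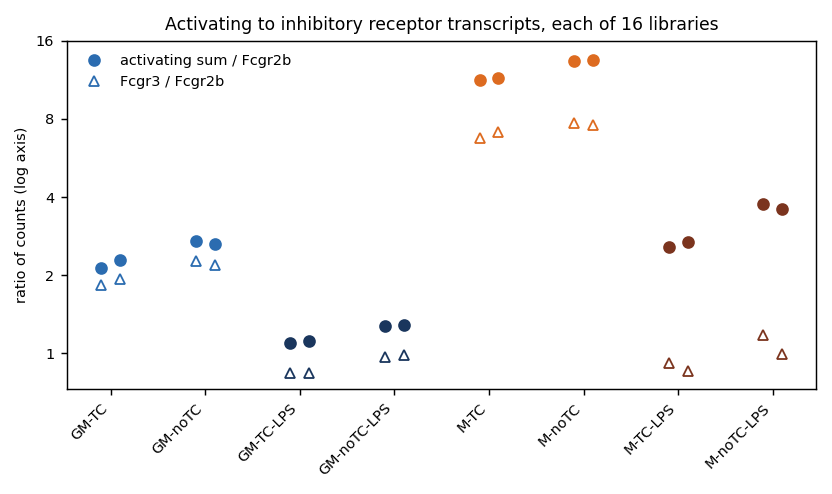
Ratio of counts within each of 16 libraries (y axis, log scale) by group (x axis), with circles for the sum of Fcgr1, Fcgr3 and Fcgr4 over Fcgr2b and triangles for Fcgr3 over Fcgr2b. The M steady state libraries were at 11.3 to 13.5 for the sum, and each LPS group was below its vehicle group.

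The division of shared reads bears on Fcgr2b, on Fcgr3 and on each ratio above that holds one of them, but not on their sum. Summed before the fit, both genes rose upon LPS by log2 1.17 in M-TC (adjusted p = 7.1e-15) and 0.78 in M-noTC (adjusted p = 1.3e-11), and had log2 fold changes of -0.08 in GM-TC and 0.02 in GM-noTC (adjusted p = 0.20 and 0.80). The sum was higher in GM than in M by log2 1.95 on TC and 2.17 on noTC at steady state, and by 0.70 and 1.41 upon LPS challenge. In GM cells, the increase of Fcgr2b upon LPS and the decrease of Fcgr3 thus left no called change of their sum. How the counting program divided the reads was not tested.

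The dish surface was the question of the study, and of the 6 genes Fcgrt in M cells had the largest dish difference, which GM cells did not share by the test of the difference. Comparing with TC, M-noTC had 1.89-fold less Fcgrt at steady state (log2 -0.92, standard error 0.088, adjusted p = 6.5e-08) and 1.99-fold less upon LPS challenge (-0.99, standard error 0.10, adjusted p = 2.3e-07). In GM cells the difference was 0.34 at steady state (adjusted p = 0.037), which was not called with DESeq2 (adjusted p = 0.10), in a fit to the 4 libraries alone (adjusted p = 0.14) or without any 1 of 5 libraries (0.27 to 0.39), and 0.07 upon LPS (interval -0.14 to 0.28, adjusted p = 0.86). For Fcgrt the dish difference in GM minus that in M was 1.26 at steady state (standard error 0.13, adjusted p = 1.1e-06) and 1.06 upon LPS (standard error 0.15, adjusted p = 4.3e-05).

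Fcgr2b was lower on noTC in M cells, with log2 differences of -0.39 at steady state (standard error 0.058, adjusted p = 2.3e-05) and -0.81 upon LPS, which is 1.75-fold (standard error 0.049, adjusted p = 1.8e-10). Its response to LPS in M was smaller on noTC than on TC (difference -0.42, standard error 0.076, adjusted p = 0.00099). In the noTC steady state libraries, genes nearly absent from the TC steady state libraries but high in others had a median excess of 0.675% (GM) and 0.600% (M) of their average level elsewhere in the series. That share was then subtracted for all genes, from the noTC steady state libraries only, which by itself lowers the noTC side. The steady state difference of Fcgr2b in M was then -0.47 (adjusted p = 3.4e-06). Its difference in the response to LPS between dishes in M shrank to -0.34 (adjusted p = 0.0065). In GM cells Fcgr2b had -0.22 at steady state (adjusted p = 0.0055, and 0.12 without GM-noTC replicate 1 or in a fit to the 4 libraries alone) and -0.06 upon LPS (interval -0.15 to 0.03). Fcgr3 was lower on noTC in M cells, at -0.26 at steady state and -0.53 upon LPS (adjusted p = 0.0053 and 4.8e-06), the first of which was -0.22 without M-TC replicate 2 (adjusted p = 0.074), and was not called in GM cells (0.03 and 0.16, adjusted p = 0.83 and 0.26). The sum of Fcgr2b and Fcgr3 was lower on noTC in M cells as well, at -0.27 at steady state and -0.67 upon LPS (adjusted p = 0.00051 and 8.8e-09). Upon LPS challenge, the dish difference in GM minus that in M was 0.75 for Fcgr2b and 0.68 for Fcgr3 (adjusted p = 2.2e-07 and 2.9e-05).

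Fcgr1 went the other way in GM cells. It was higher on noTC by log2 0.42 at steady state (standard error 0.083, adjusted p = 0.0019) and 0.40 upon LPS (standard error 0.082, adjusted p = 0.0056), that is 1.34-fold and 1.32-fold. These became 0.34 without GM-noTC replicate 2 (adjusted p = 0.067) and 0.29 without GM-TC-LPS replicate 1 (adjusted p = 0.21), the latter was not called without GM-noTC-LPS replicate 1 (0.40, adjusted p = 0.056), and the first was not called in a fit to the 4 libraries alone (adjusted p = 0.078). In M cells it was 0.05 at steady state (interval -0.09 to 0.20) and -0.22 upon LPS (adjusted p = 0.029, 0.17 with library size alone, and 0.066 to 0.20 without any 1 of its 4 libraries). The dish difference in GM minus that in M was 0.37 at steady state (adjusted p = 0.033) and 0.63 upon LPS (adjusted p = 0.00050). The value at steady state was not called in a fit to its own 8 libraries (adjusted p = 0.062) or without any 1 of 5 libraries, with values of 0.26 to 0.37. Fcgr4 and Fcer1g had -0.21 and -0.24 on noTC in M cells upon LPS (adjusted p = 0.022 and 0.0091), neither of which was called with library size alone. The call of Fcgr4 was lost without M-TC-LPS replicate 2 or M-noTC-LPS replicate 2 (-0.16 and -0.22). Without M-TC-LPS replicate 1 that of Fcer1g was lost (-0.21). Both Fcgr4 and Fcer1g lost the call without M-noTC-LPS replicate 1 (-0.19 and -0.20). In the other 3 dish comparisons neither was called on the TMM scale, but the -0.17 of Fcgr4 in M at steady state (adjusted p = 0.085) was called with library size alone (-0.19, adjusted p = 0.049), with DESeq2 size factors (-0.19, adjusted p = 0.046) and in a fit to its own libraries (-0.18, adjusted p = 0.016), and the -0.08 of Fcer1g in GM was -0.21 without GM-TC replicate 1 (adjusted p = 0.0066).

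Called dish differences were 2 higher and 1 lower in GM at steady state, beside 4.69% and 2.85% of all genes, and 0 higher and 3 lower in M, beside 16.1% and 11.1%. Upon LPS challenge, 1 was higher and 0 lower in GM, beside 2.08% and 0.727% of all genes, and 0 higher and 6 lower in M, beside 10.4% and 12.9%. With library size alone the 6 lower in M became 3, namely Fcgr2b, Fcgr3 and Fcgrt, beside 7.03% of all genes lower. The dish difference in GM minus that in M was called higher for 3 genes and lower for 0 at steady state, beside 4.82% and 6.4% of all genes, and for 5 and 0 upon LPS, beside 6.87% and 3.71%. The response to LPS differed between dishes for 0 of the 6 genes in GM, beside 0.192% higher and 0.591% lower of all genes, by edgeR's test. At an unadjusted p under 0.05, Fcgr2b alone differed in GM, and 0 genes were called there by DESeq2. In M it differed for 1 gene, Fcgr2b, lower, and for 0 higher, beside 7.48% and 3.11%. There Fcgr3 was also called with DESeq2 (-0.27, adjusted p = 0.043) and Fcgr1 with the replicate block (-0.27, adjusted p = 0.0497) and in a fit to its own libraries (-0.23, adjusted p = 0.020), and both without the filter. At steady state the dish was also matched by heart muscle genes. The 6 heart markers summed to 20.1 to 41.1 CPM in GM-TC and 33.0 to 56.1 CPM in M-TC, with 6 of 6 detected, and to 0.813 CPM or less in the other 6 groups, where 1 to 5 of 6 had a count. Their part in the steady state dish values was not tested.

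**Figure D4:**
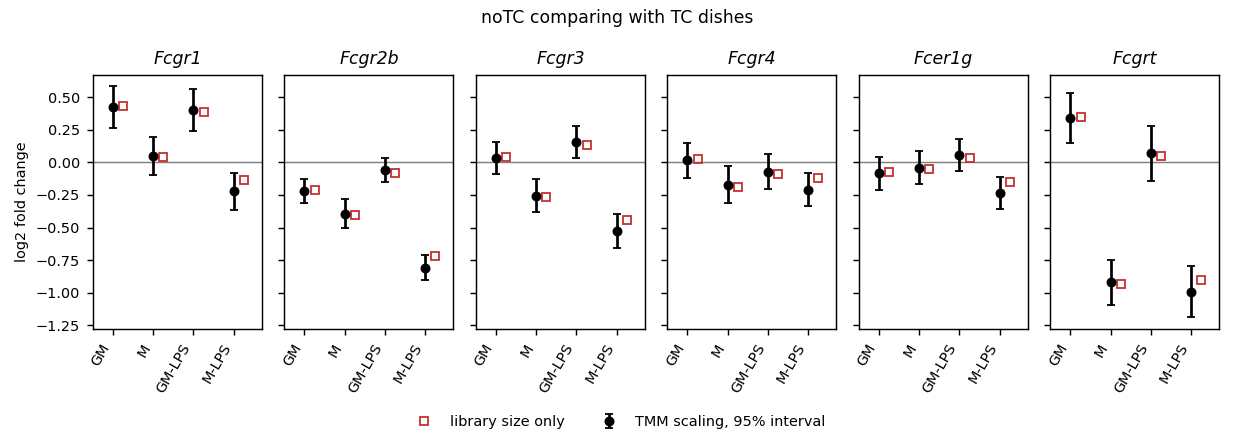
Log2 fold change of noTC comparing with TC (y axis) of each gene in GM, M, GM-LPS and M-LPS (x axis), with filled circles and bars for TMM scaling and its 95% interval and open squares for library size alone. Fcgrt was near -0.92 and -0.99 in M cells and at 0.34 and 0.07 in GM cells, and Fcgr2b was lowest in M-LPS at -0.81.

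Likeness of pattern was measured by Pearson's r of log2(TMM CPM + 0.5) over the 16 libraries, among 7826 genes with a mean of at least 10 CPM. These values are descriptions, since the libraries share groups and scaling. For Fcgr1 the most alike genes were Lipe (r = 0.991), Arhgdib (0.987) and Ly86 (0.984), and for Fcgr2b they were Prkcd (0.995), 1810013L24Rik (0.993) and Atp5a1 (0.990). Prkcd, a protein kinase C, is also in the signalling list below. Genes alike to Fcgr3 included Litaf (0.982) and Cmklr1 (0.980). Fcgr4 was most like Aggf1 (0.984), Tmem50b (0.983) and Mycl (0.983), and Fcer1g most like Ebi3 (0.990), Cd82 (0.990) and Zfp263 (0.990). Fcgrt had no gene as close, with Mif4gd (0.872), Lgmn (0.868) and Susd1 (0.866). Among the 6 genes themselves, r was 0.82 for Fcgr1 and Fcer1g and -0.75 for Fcgr1 and Fcgr3. The neighbouring genes Fcgr3 and Fcgr4 had an r of 0.04.

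Downstream of the receptors, a list of 65 signalling genes was counted in the same fit, and all 65 were tested. Upon LPS challenge, 34 were higher and 15 lower in M-TC, 36 higher and 15 lower in M-noTC, 31 higher and 20 lower in GM-TC, and 33 higher and 22 lower in GM-noTC. These were 52.3% and 23.1%, 55.4% and 23.1%, 47.7% and 30.8%, and 50.8% and 33.8% of the list, beside 37.6% and 36.4%, 36.4% and 35.9%, 32.8% and 34.2%, and 33.6% and 34.0% of all tested genes. Their median log2 fold changes were 0.52, 0.37, 0.16 and 0.12, and those of all tested genes -0.008, -0.006, -0.05 and -0.03. With library size alone the split turned, to 19 higher and 38 lower in M-TC, 14 higher and 41 lower in M-noTC, 19 higher and 41 lower in GM-TC, and 15 higher and 40 lower in GM-noTC, where 16.1% to 17.2% of all genes were called higher and 62.7% to 69.1% lower. Of the 6 Src family kinases, which phosphorylate the receptor motifs, 4 or 5 were higher and 0 lower in each LPS comparison, with medians of 1.20 to 2.16, and with library size alone 3 or 4 were higher and 0 to 2 lower. Of the 7 inhibitory phosphatases and adaptors, 2 or 3 were higher and 3 or 4 lower, which became 0 to 2 higher and 5 or 6 lower with library size alone. Among 18 actin genes of the phagocytic cup, 11 or 12 were higher and 2 to 4 lower, which turned to 5 or 6 higher and 10 or 11 lower with library size alone.

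Of the kinases next to the receptors, Syk, which docks on the phosphorylated gamma chain, rose upon LPS by log2 1.31 to 1.73 over the 4 comparisons. Syk was at 447 and 389 CPM in GM-TC and 1081 and 1083 CPM in GM-TC-LPS, and at 380 CPM in each M-TC library and 1284 and 1243 CPM in M-TC-LPS. Lyn, which serves both activating and inhibitory receptors, rose by 1.87 in M-TC and 1.67 in M-noTC but by 0.59 and 0.44 in GM, where the latter turned to -0.06 with library size alone. Inpp5d, the phosphatase recruited by FcγRIIB, was lower upon LPS in each comparison, with log2 fold changes of -2.56 in M-TC, -2.29 in M-noTC, -2.64 in GM-TC and -2.43 in GM-noTC. It went from 204 CPM in both M-TC libraries to 34.9 and 34.2 CPM in M-TC-LPS, and from 171 and 150 CPM in GM-TC to 26.7 and 24.6 CPM in GM-TC-LPS. Fcgr2b and Inpp5d thus moved in opposite directions upon LPS in all 4 comparisons, on the TMM scale. Ptpn6, the phosphatase SHP-1, had values of -0.26 and -0.21 in GM, which were called, and 0.11 and 0.04 in M, which were not, and was called lower in all 4 with library size alone (-0.74 to -0.69).

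By the rule for named genes, Src, the adaptor Lcp2 and the myosin Myo10 had the largest increases upon LPS among signalling genes called higher in all 4 comparisons, with mean log2 fold changes of 3.85, 2.82 and 2.19. Inpp5d, the kinase Tec and the inhibitory adaptor Dok2 had the largest decreases, with means of -2.48, -1.78 and -1.53. In GM against M, 24 signalling genes were higher and 34 lower on TC before LPS and 17 and 39 after, and 25 and 30 on noTC before LPS and 19 and 38 after. Before LPS these were 36.9% and 52.3% of the list on TC and 38.5% and 46.2% on noTC, beside 32.6% and 28.9% and then 31.4% and 30.7% of all genes. After LPS 33.9% and 32.9% of all genes were called on TC and 33.5% and 32.6% on noTC. Scaled by library size alone, the counts before LPS were 19 and 43 on TC and 18 and 41 on noTC, and those after LPS 17 and 39 and then 18 and 39. With that scaling, 19.6% and 50.8% of all genes were called before LPS on TC and 19.7% and 52.1% on noTC. The shares of all genes after LPS were 35.5% and 31.3% on TC and 29.7% and 36.4% on noTC. Fgr was higher in GM in all 4 comparisons, by a mean log2 difference of 3.20, and was at 47.6 to 57.0 CPM in GM and 3.33 to 8.42 CPM in M libraries. The kinases Yes1 and Sphk1 were also called higher in GM, and both were at 0 CPM in some M libraries, so no fold is given. Yes1 was at 0.245 to 2.69 CPM in GM and 0.0581 CPM or less in M, and Sphk1 at 5.31 to 11.5 CPM in GM and 0.984 CPM or less in M. Inppl1, the phosphatase SHIP-2, had a mean log2 difference of -2.29, Fyn of -2.23 and Prkce of -1.57.

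On noTC comparing with TC, 9 signalling genes were higher and 0 lower in GM at steady state, 17 and 9 in M, 1 and 0 in GM upon LPS, and 5 and 20 in M upon LPS. These were 13.8% and 0%, 26.2% and 13.8%, 1.54% and 0%, and 7.69% and 30.8% of the list, beside 4.69% and 2.85%, 16.1% and 11.1%, 2.08% and 0.727%, and 10.4% and 12.9% of all genes. With library size alone the last counts became 13 and 13, beside 16.8% and 7.03% of all genes. The inhibitory adaptor Dok2 was higher on noTC in 3 of 4 comparisons, by log2 0.32 in GM, 1.16 in M and 0.71 in M upon LPS. The adaptor Lat was higher in M by 1.27 and 1.22, at levels of 0.718 to 2.72 CPM, and Fyn was higher in GM by 0.43 and in M by 0.54 at steady state. Pik3ca, Lyn and the actin regulator Vasp were lower on noTC in M cells in both states, with log2 differences of -0.37 and -0.40, -0.19 and -0.38, and -0.19 and -0.33.

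**Figure D5:**
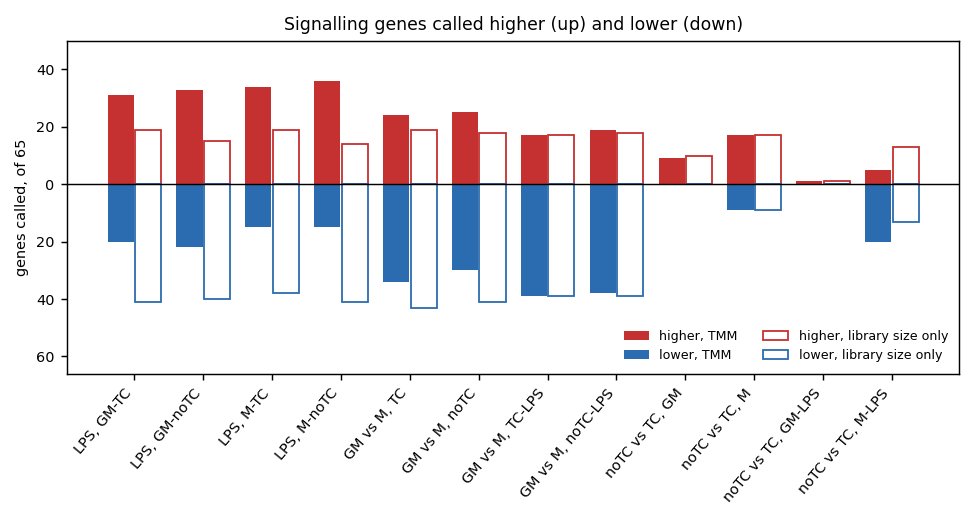
Number of the 65 signalling genes called higher (upward bars) and lower (downward bars) in 12 comparisons (x axis), with filled bars for TMM scaling and open bars for library size alone. For LPS the larger side turned from higher to lower with library size alone, from 34 higher and 15 lower to 19 and 38 in M-TC.

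Among 16 other genes related to Fc receptors, 8 were tested, and 5 were called higher upon LPS in each of the 4 comparisons, with 0 or 1 lower, beside 32.8% to 37.6% of all genes higher and 34.0% to 36.4% lower. Under library size scaling 3 to 5 were higher and 2 or 3 lower, beside 16.1% to 17.2% of all genes higher and 62.7% to 69.1% lower. Trim21, the antibody receptor of the cytosol, rose by log2 3.88 to 4.33 over the 4 comparisons, from 10.7 to 39.7 CPM over the steady state libraries to 223 to 619 CPM over those with LPS. B2m, the partner of Fcgrt, rose by 0.98 in M-TC, 1.01 in M-noTC, 0.72 in GM-noTC and 0.46 in GM-TC, the last of which turned to -0.02 with library size alone. Fcgrt itself had log2 fold changes of -0.52 to -0.13 there, so the chains of the neonatal receptor had values of opposite sign on the TMM scale. On noTC comparing with TC in M cells, where Fcgrt was lower, B2m had 0.05 at steady state and 0.08 upon LPS, and neither was called, although the latter was 0.17 and called with library size alone (adjusted p = 0.025). Tyrobp, the other ITAM adaptor of macrophages, was not called upon LPS in any of the 4 comparisons (-0.09 to 0.11), was called lower in all 4 with library size alone (-0.76 to -0.45), and was higher in GM than in M by 0.40 to 0.55.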

How the data were processed

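RNA of the 16 cultures was enriched for poly(A) transcripts with oligo(dT) and sequenced. The genome build and annotation behind the counts are not given in the sources used here. Per the submitters' processing notes, the tools were fastp 0.18.0, Bowtie2 2.2.8, HISAT2, StringTie 1.3.1, RSEM, DESeq2 and edgeR. The authors deposited RSEM expected counts for 22287 genes without normalization, and between 6.56% and 8.19% of values per library were not whole. RSEM divides reads that fit several genes by estimate, which bears on Fcgr2b and Fcgr3. Expected counts were rounded, filtered with filterByExpr (12514 genes kept of 16756 with a count), scaled with TMM and fitted over all 16 libraries in 8 groups with glmQLFit of edgeR 4.0.16 (R 4.3.3). Columns were matched to groups by their labels. The common dispersion gave a biological coefficient of variation of 4.75%. Standard errors come from the F statistic, and intervals are 95% intervals from a normal error. They are therefore narrower than the quasi-likelihood test implies, and an interval just short of 0 can go with an unadjusted p above 0.05. In the study, genes were called at a fold above 2, or above 1.5 for the dish upon LPS, and an unadjusted p under 0.05. These rules are alternatives here, the second chosen after seeing the data, as is the study's tool DESeq2 (1.42.0). Other alternatives were scaling, filter, a replicate block, fits to fewer libraries and, for the noTC steady state libraries, a subtraction of a small share of the average level elsewhere in the series (0.675% for GM and 0.600% for M, from the median excess of 15 and 19 genes nearly absent from the matched TC libraries). The fit was checked on simulated counts for the dish comparison in GM. The 6 genes, the lists and the tests were chosen with earlier results of these data known. Named genes were the 6 members, the proximal signalling genes Lyn, Fgr, Syk, Inpp5d and Ptpn6, and Tyrobp, B2m and Trim21. They also included up to 3 signalling genes per direction called the same way in all 4 comparisons (2 for the dish), by the size of the mean log2 fold change over the 4, and the 3 genes most alike to each member, and 2 genes under this rule are not reported here. Fcer1a, Prkcd and the markers were named after their values were seen. Coding sequences and exon lengths are from GENCODE M21, aligned with Biopython 1.88, and promoters are from RefSeq (6 of 6 genes matched). Protein sequences were not used here.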

Additional observations from a re-analysis of the deposited data

Results flagged for a closer look

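A difference between groups in the same contrast was called, by edgeR's interaction test, for 18 of 36 values of the 6 genes. Of all genes, 17.8% were called higher and 23.3% lower for the LPS response in GM minus that in M on TC. For the LPS response on noTC minus that on TC in GM these shares were 0.192% and 0.591%, and the other contrasts lay between. The contrasts share libraries, so the 36 values are not separate evidence. The log2 response to LPS in GM minus that in M was -1.39 on TC and -1.13 on noTC for Fcgr1, -2.67 and -2.10 for Fcgr2b, -0.87 and -0.48 for Fcgr3, -2.05 and -2.10 for Fcgr4, and -0.40 on TC for Fcer1g. The dish difference in GM minus that in M was 0.37 at steady state and 0.63 upon LPS for Fcgr1, 0.29 and 0.68 for Fcgr3, and 1.26 and 1.06 for Fcgrt. The 0.29 for Fcgr3 (adjusted p = 0.044) was not called with the replicate block (adjusted p = 0.0501) or without any 1 of 11 libraries (0.24 to 0.33, adjusted p = 0.0503 to 0.18). Upon LPS alone it was called at 0.75 for Fcgr2b and at 0.29 for Fcer1g, and the latter (adjusted p = 0.040) was 0.19 with library size alone (adjusted p = 0.17) and was not called without any 1 of 12 libraries (0.26 to 0.32, adjusted p = 0.055 to 0.16). For Fcgr2b the response to LPS in M was smaller on noTC than on TC, at -0.42. Groups of 2 libraries are too small for a test of single libraries that stand apart.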

How the results depend on the processing

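Growth factor calls were the steadiest, with 22 of 23 held under every alternative that used an adjusted p, against 12 of 21 for LPS, 5 of 13 for the dish and 14 of 18 interactions. With library size alone, LPS calls of the 6 genes went from 17 higher and 4 lower to 9 and 12, those of the signalling list from 134 and 72 to 67 and 160, and interactions of that list from 36 and 91 to 63 and 55. Of all genes, 16.1% to 17.2% were then called higher and 62.7% to 69.1% lower upon LPS. The called values that turned with library size alone were those of LPS for Fcgr1 (-0.19 in GM-TC and -0.24 in GM-noTC), Fcgr4 (-0.24 and -0.35), Fcgr3 in M-TC (-0.54), B2m in GM-TC (-0.023), Fgr in M-noTC (-0.084) and Lyn in GM-noTC (-0.06). In GM against M at steady state they were Fcgrt and Lyn on noTC (-0.031 and -0.13) and Syk on TC (-0.17). With a fold above 2 and an unadjusted p, calls of the 6 genes were 7 higher and 0 lower for LPS, 7 and 6 for the growth factor, 0 and 0 for the dish, and 2 and 6 for interactions. For the signalling list they were 57 and 25, 31 and 33, 4 and 1, and 3 and 19. With a fold above 1.5 for the dish upon LPS, a rule of the study that was added after seeing the data, dish calls were 0 higher and 2 lower for the 6 genes (Fcgrt and Fcgr2b in M) and 5 and 1 for the list. Shares of all genes under these fold rules are not given here, so the counts by fold cannot be set against a background. A separate fit per comparison, to its own libraries, left 1 of 3 higher dish calls of the 6 genes.

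Without 1 library, in fits where the lone library of a group is taken to vary like the others, calls of the 6 genes were 15 to 17 higher and 3 to 5 lower for LPS, 10 to 11 and 12 for the growth factor, 1 to 3 and 7 to 12 for the dish, and 5 to 9 and 10 to 13 for interactions. For the signalling list they were 129 to 140 and 66 to 79, 81 to 86 and 137 to 148, 23 to 47 and 21 to 37, and 29 to 57 and 72 to 104. Libraries with the same replicate number did not deviate together (r of -0.064 to 0.036 across genes). This cannot decide whether the numbers pair the samples, because counting error in each library can hide a shared deviation. The labels do not name the animals or cultures, so pairing is unknown. With the replicate block, calls of the 6 genes were 17 higher and 3 lower for LPS, 11 and 12 for the growth factor, 3 and 10 for the dish, and 7 and 11 for interactions.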
